A study of Homo sapiens with 13 samples.

Results

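The genes described here are 39 human genes of the lysosome, chosen by a list that comprised 8 proteases, 7 glycosidases, 2 sulfatases, 5 genes of lipid breakdown and transport, 5 membrane proteins, and 12 subunits of the vacuolar proton pump (V-ATPase), 6 of its V0 sector and 6 of its V1 sector. All 39 were found among the 56238 rows of the gene count table, and all 39 passed the filter on low counts that left 20320 genes for testing. RNA was sequenced from 13 clones of HEK293T, a human embryonic kidney cell line whose chromosome numbers are above diploid. The cells had received Cas9 and guide RNA plasmids with a single-stranded repair template for a variant of FLCN, a brief puromycin selection and single-cell sorting, and each library is 1 clone. Genotype labels list 3 copies, of which HOM clones (n = 2) carry the edit on 3, HET clones (n = 7) on 1 and WT clones (n = 4) on 0. Per the labels, WT clones went through the same steps and are not untreated parental cells. The comparisons ask how lysosomal expression differs with the number of edited copies.

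Lysosomes break down proteins, glycans, lipids and nucleic acids with hydrolases that work in acid, and the V-ATPase provides that acid by pumping protons with energy from ATP. Its V1 sector in the cytosol hydrolyses ATP and turns a rotor, and its V0 sector in the membrane carries the protons. Folliculin, the product of FLCN, acts on Rag GTPases at the lysosome surface and so controls TFEB and TFE3, transcription factors that bind the CLEAR element of many lysosomal promoters, a palindrome built around CACGTG.

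Promoter sequence (250 bases before to 50 after each listed start, RefSeq, build GRCh38.p14) was held for 26 of the 39 genes. The core CACGTG was present in 12 of these, or 46.2%, against 8.77% of the 27305 genes with such sequence. The longer TCACGTGA was present in 7 of the 26 (ATP6V0D1, CLN3, CTSA, GAA, LAMP1, MCOLN1 and SCPEP1), or 26.9%, against 1.18% of genes. The longer motif contains the shorter one, both read the same on either strand, and a match describes the letters only. Many genes of the list are known for this element, so its share supports nothing by itself. The following stretches lie upstream of the start, with the longer motif present in capitals. GAA, MCOLN1, LAMP1, CTSA, SCPEP1 and ATP6V0D1 are shown with TCACGTGA, and CTSD, CTSF, CD63 and NEU1 with the core CACGTG only. Whether TFEB or TFE3 acts through these sites was not tested.
GAA (chr17:80101493-80101522, + strand): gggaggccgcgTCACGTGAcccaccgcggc
MCOLN1 (chr19:7522571-7522600, + strand): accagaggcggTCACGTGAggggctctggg
LAMP1 (chr13:113297199-113297228, + strand): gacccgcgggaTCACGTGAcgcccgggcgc
CTSA (chr20:45891298-45891327, + strand): ggcgccggagtTCACGTGActcgtacacat
SCPEP1 (chr17:56978092-56978121, + strand): gtccgcctccgTCACGTGAtggggcgccgg
ATP6V0D1 (chr16:67481199-67481228, - strand): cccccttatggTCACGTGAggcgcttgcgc
CTSD (chr11:1763957-1763986, - strand): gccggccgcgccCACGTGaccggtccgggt
CTSF (chr11:66568640-66568669, - strand): ccctgcgcgcccCACGTGcctcctgtaaac
CD63 (chr12:55729172-55729201, - strand): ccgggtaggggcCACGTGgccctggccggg
NEU1 (chr6:31862930-31862959, - strand): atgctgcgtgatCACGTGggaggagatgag
GAA held another TCACGTGA nearer its start, and LAMP1 held 4 further CACGTG between 192 and 137 bases before its start. CTSA held another CACGTG 42 to 37 bases before its start, and CTSF another 123 to 118 bases before its start.

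Libraries held 44504068 to 54377639 counts, and the 39 genes together took 0.335 to 0.486% of them. HOM 1 had 4.33% of its counts from mitochondrial genes, against 1.76 to 3.54% in the other 12 clones. FLCN itself had 23.7 and 36.7 CPM in HOM clones, 27.4 to 63.9 CPM (median 30.7) in HET clones, and 26.1, 28.8, 50.4 and 43.4 CPM in WT clones, where CPM is the count per 1000000 counts after TMM scaling. The lowest was HOM 1, where genes of chromosome 17 had a median of -0.26 in log2 units relative to the median of the 13 clones, so the copies of FLCN in that clone are uncertain and were not measured here. Of 6 markers of macrophages, whose cells are rich in lysosomes, the defining PTPRC and LYZ had at most 0.135 and 0.235 CPM in any clone, and CD14, CSF1R and CD68 at most 0.784, 1.03 and 3.81 CPM. CYBB had 2.08 and 1.35 CPM in HOM clones, 0.322 to 1.28 CPM in HET clones and 0.424 to 0.786 CPM in WT clones, with a log2 fold change of 1.47 in HOM against WT (SE 0.50, adjusted p = 0.25 by edgeR). The 6 summed to 4.67 to 4.91 CPM in HOM, 1.71 to 5.59 CPM in HET and 2.36 to 4.09 CPM in WT clones. Of 6 markers of the HEK293T line, VIM and KRT18 had at least 206.8 and 33.5 CPM in every clone, VIM being lowest in WT 1 with at least 735 CPM in the other WT clones. KRT8 had 3.40 to 38.7 CPM and DPYSL3 1.92 to 57.8 CPM, and INA and NEFM were below 1 CPM in some clones, with lows of 0.145 and 0.0724 CPM.

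Every one of the 39 genes was expressed, and none passed the test in any comparison of genotypes. With edgeR's quasi-likelihood test and Benjamini-Hochberg adjustment over all genes, 0 of the 39 passed an adjusted p of 0.05 in HOM against WT, HET against WT or HOM against HET, where 0.0%, 0.128% and 0.0% of all genes passed. The lowest adjusted p among them was 0.20 in HOM against WT, for TPP1, and 0.10 in HET against WT, for LIPA. At an unadjusted p below 0.05, HOM against WT gave 4 higher (ATP6V1D, CTSA, LAMP1, PPT1) and 4 lower (ARSA, GUSB, LIPA, TPP1), where 7.52% and 6.84% of all genes passed. HET against WT gave 5 higher (ATP6V0D1, ATP6V1A, ATP6V1D, CTSA, PPT1) and 2 lower (GUSB, LIPA), against 9.73% and 8.73% of all genes. These shares, 10.3% and 10.3% in HOM and 12.8% and 5.13% in HET, lie near those of all genes. Other tools called some. DESeq2 called TPP1 in HOM (1 of 39, 2.56%, against 1.94% of all genes) and LIPA and ATP6V1D in HET (5.13%, against 5.64%), with adjusted p of 0.0113, 0.0313 and 0.0305. Called by limma voom with sample weights were TPP1 in HOM (2.56%, against 2.94% of all genes) and 7 higher and 4 lower members in HET (28.2%, against 20.8%). The HOM and HET comparisons use the same 4 WT clones. Replicates are separate clones of 1 line, so p-values measure the spread between clones, and in bulk RNA fewer cells making a transcript and less of it per cell cannot be told apart.

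**Figure D1:**
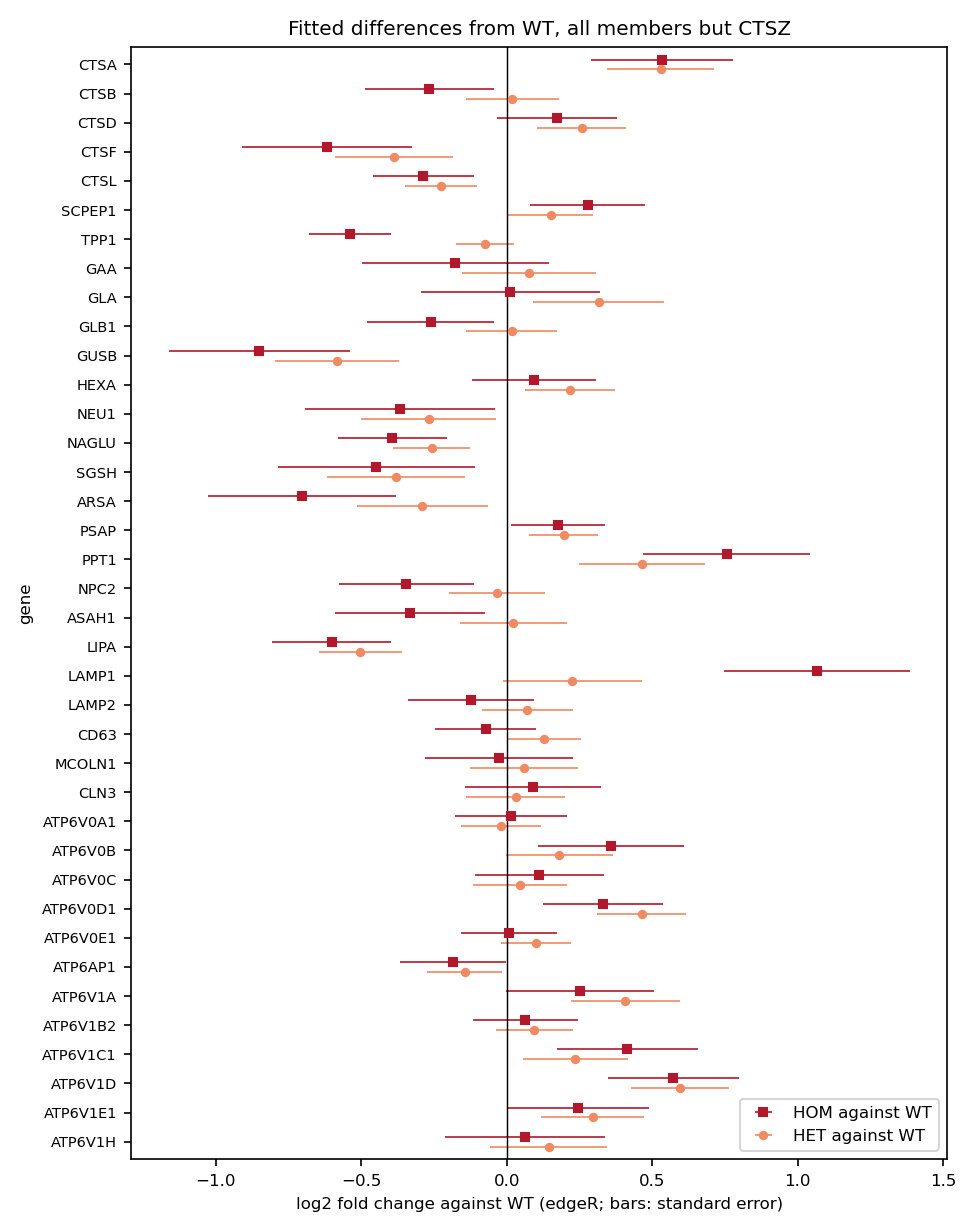
Fitted log2 fold change against WT (horizontal axis, edgeR) of 38 genes (vertical axis, by role) in HOM (squares) and HET (circles) clones, with bars for the standard error; CTSZ is left out because it was near absent in 4 clones. Values in HOM clones run from -0.85 for GUSB to 1.07 for LAMP1, and none passed an adjusted p of 0.05.

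The median log2 fold change of the 39 genes was 0.01 in HOM and 0.07 in HET clones against WT, beside -0.01 and 0.01 over all genes tested. In HOM clones 20 of 39 lay above 0, where 49.0% of all genes did, and in HET clones 26 of 39, where 50.8% did. Against HET clones, 9 of 39 were above 0 in HOM clones (45.1% of all genes), with a median of -0.09 beside -0.03 over all genes. By role, the 6 listed V1 subunits had the highest medians, 0.25 in HOM and 0.27 in HET clones, with 6 of 6 above 0 in each. The 2 sulfatases had the lowest, -0.58 and -0.33. The HOM values did not overlap the WT values for 5 genes that were higher (ATP6V0B, ATP6V1D, CTSA, CTSD, PPT1) and 7 that were lower (ARSA, CTSL, GUSB, LIPA, NAGLU, NPC2, TPP1), and 12.8% of all genes met each condition. HET and WT values overlapped for all 39, where 1.23% of all genes were wholly higher and 1.38% wholly lower in HET.

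**Figure D2:**
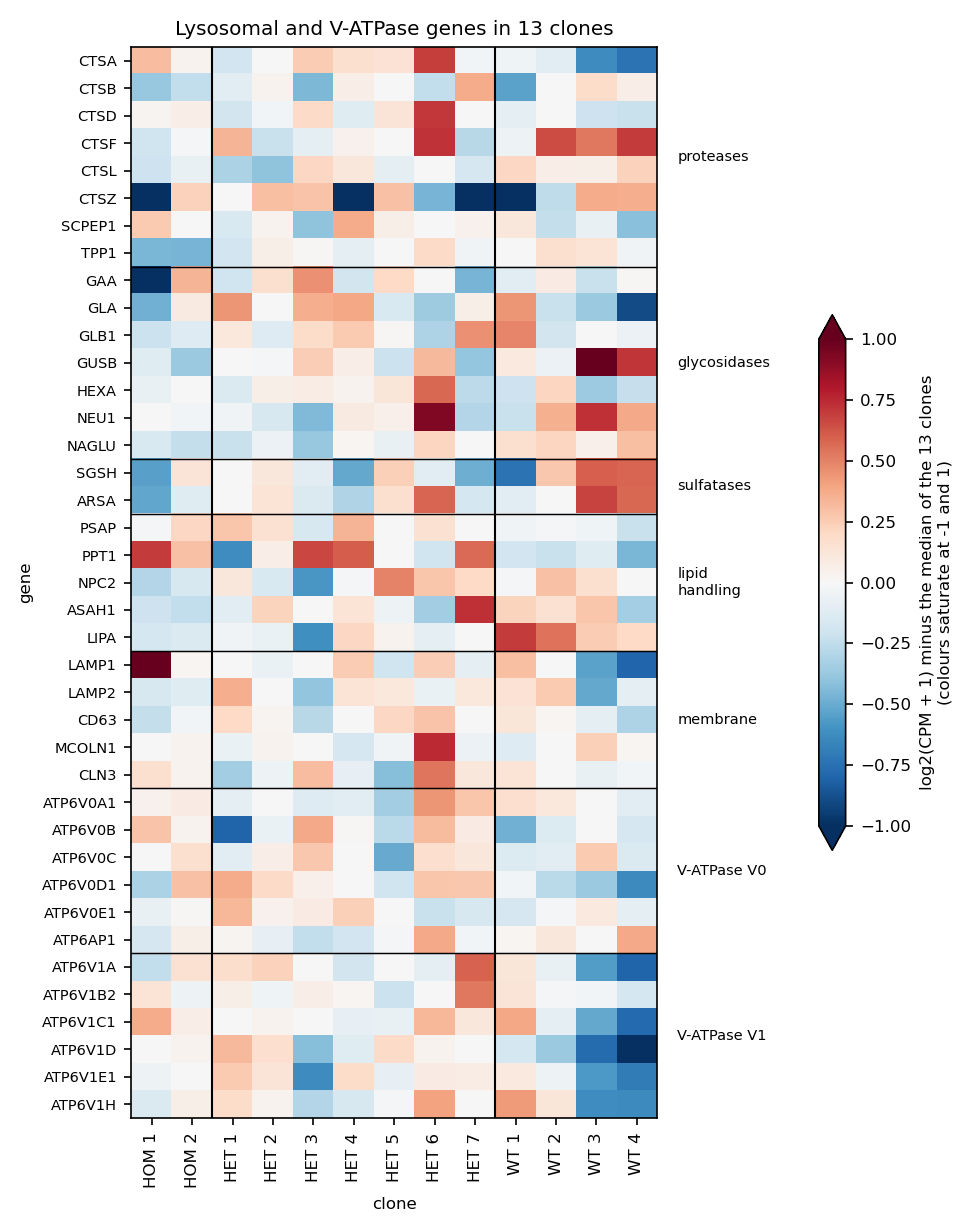
Level of each of the 39 genes (rows, by role) in each clone (columns), as log2(CPM + 1) minus the median of the 13 clones. Colours saturate at 1 log2 unit in either direction. The deepest blue marks CTSZ in HOM 1, HET 4, HET 7 and WT 1 (-4.43 to -4.22), and also GAA in HOM 1 (-1.16) and ATP6V1D in WT 4 (-1.01). The deepest red marks LAMP1 in HOM 1 (1.38) and GUSB in WT 3 (1.25). The column of HET 6 holds the highest value of 11 genes.

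Levels per length, in CPM per kilobase of the longest principal transcript, ran from 4.6 for ARSA and 6.70 for MCOLN1 to 132 for GLA, 137 for CD63 and 161 for PSAP. The highest clone exceeded the lowest by 1.48-fold for PSAP and 4.65-fold for LAMP1, the least and the most apart from CTSZ. The median over the 39 genes was 2.03-fold, close to the 1.94-fold of all 9936 genes with a mean of at least 10 CPM. Within genotypes the median ratio of highest to lowest was 1.74-fold among the 7 HET and 1.5-fold among the 4 WT clones.

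Among the proteases, the cysteine carboxypeptidase CTSZ was near absent in some clones of every genotype. It had 0.226 CPM in HOM 1 and 26.7 CPM in HOM 2, 0.101 CPM in HET 4 and 0.270 CPM in HET 7 but 16.2 to 28.2 CPM in the other 5 HET clones, and 0.240 CPM in WT 1 but 18.9, 29.6 and 29.4 CPM in the other WT clones. These are 5 to 12 counts in the 4 low clones and 803 to 1533 counts in the other 9, and the lowest of the 9 was 59.9-fold above the highest of the 4. The low clones were 1 of 2 HOM, 2 of 7 HET and 1 of 4 WT, so each genotype held clones of both kinds. CTSZ was singled out after its values were seen.

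The genes on either side of CTSZ were not low in these clones. The adjacent NELFCD had 86.8 to 113.9 CPM in the 4 low clones and 74.8 to 124.5 CPM in the other 9, and ATP5F1E on the other side had 98.7 to 117 CPM and 77.9 to 118 CPM. Over the 10 nearest expressed genes the median deviation from the 13-clone median was 0.02 log2 units in HOM 1, -0.09 in HET 4, 0.01 in HET 7 and 0.00 in WT 1, where CTSZ itself was at -6.65, -7.81, -6.39 and -6.56. The single neighbours lay between -0.53 and 0.20 in HOM 1, -0.445 and 0.21 in HET 4, -1.39 and 0.20 in HET 7, and -0.03 and 0.38 in WT 1, the -1.39 being SYCP2. Across all tested genes with a mean of at least 10 CPM, 32 of 9936 (0.322%) had a highest clone at least 50 times the lowest, and CTSZ was the 1 gene low in exactly these 4 clones. Its promoter sequence was held and had no CACGTG.

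**Figure D3:**
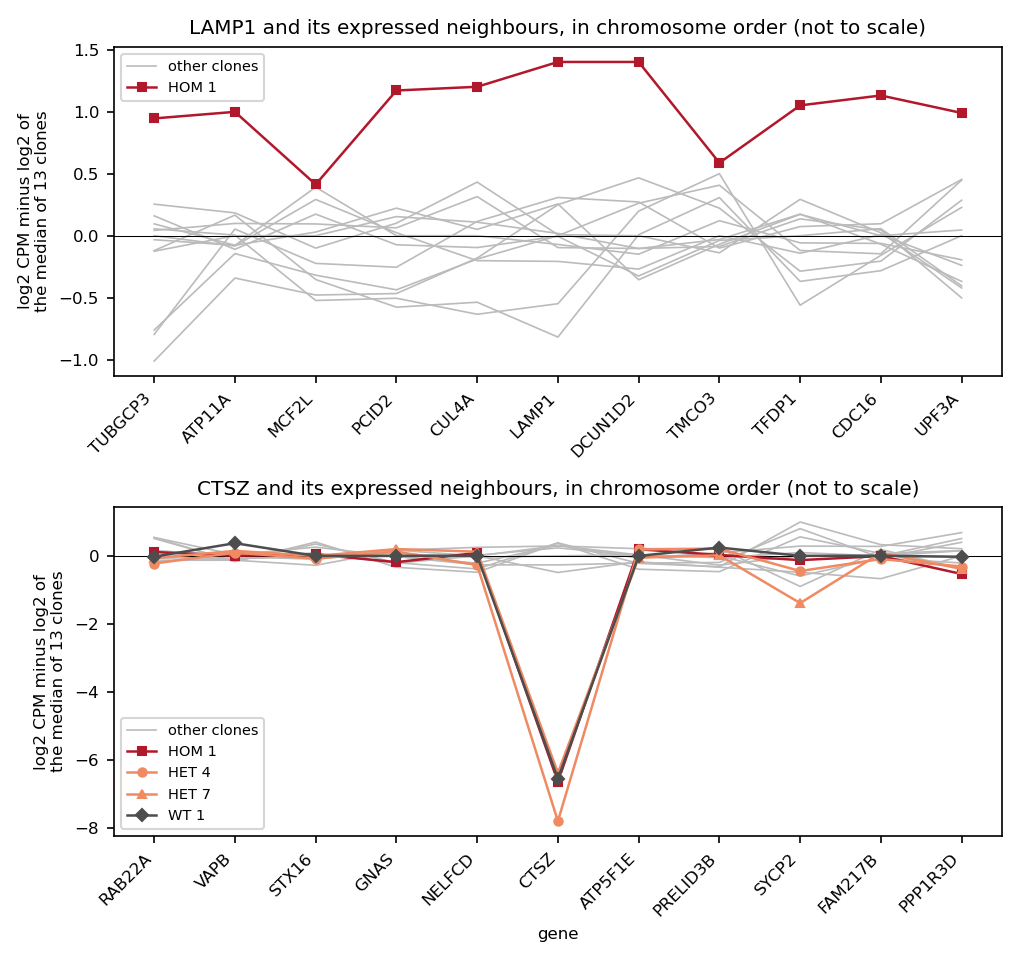
Log2 CPM minus log2 of the median of the 13 clones (vertical axis) for LAMP1, CTSZ and their 5 nearest expressed genes on each side (horizontal axis, chromosome order, not to scale), 1 line per clone. In HOM 1 LAMP1 and its 10 neighbours all lie between 0.41 and 1.40, while CTSZ drops to between -7.81 and -6.39 in 4 clones, where the lowest of its neighbours is SYCP2 at -1.39 in HET 7.

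TPP1, which removes tripeptides from the ends of proteins, was the member with the lowest p in HOM clones. It had 101.3 and 100.7 CPM in HOM clones, 122.4, 139.7 and 159.6 CPM (lowest, median and highest) in HET clones, and 140.1, 156.6, 153.7 and 136.3 CPM in WT clones. Both HOM clones lay below all 11 others, and it was the only member with no overlap between HOM and HET clones, a condition that 1.27% of all genes met on that side and 1.21% on the other. Its log2 fold change came to -0.54 (SE 0.14, adjusted p = 0.20 by edgeR) against WT and -0.46 (SE 0.13, adjusted p = 1.0 by edgeR) against HET, where 0.891% of all genes were lower at an unadjusted p below 0.05. Without HOM 1 it was -0.53 against WT and without HOM 2 -0.54.

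CTSA, a carboxypeptidase that also shields the glycosidases GLB1 and NEU1 from degradation, had positive fold changes. It had 62.6 and 51.8 CPM in HOM clones, 44.0, 55.9 and 82.3 CPM (lowest, median and highest) in HET clones, and 49.0, 46.8, 32.3 and 29.8 CPM in WT clones. The HOM clones lay above all WT clones, and the HET range reached into the WT range at its low end. The fitted value on the log2 scale was 0.53 in HOM (SE 0.24, adjusted p = 0.34 by edgeR) and 0.53 in HET clones (SE 0.18, adjusted p = 0.15 by edgeR) against WT. On the opposite strand CTSA overlaps exons of NEURL2 and PLTP, and whether the counting used strand is not known, so their reads may be mixed.

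CTSF, a cysteine cathepsin, had 17 and 19.4 CPM in HOM clones. It had 16.1, 19.6 and 33.1 CPM (lowest, median and highest) in HET clones, and 18.9, 31.4, 28.7 and 32.5 CPM in WT clones. All WT clones lay within the HET range, with HET 6 above them all. CTSB and CTSL, the widely expressed cysteine cathepsins, CTSD, the main aspartic protease, and the carboxypeptidase SCPEP1 varied between 1.56-fold (CTSL) and 1.91-fold (CTSD) over the 13 clones, with no p below 0.05.

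Of the glycosidases, GUSB, the beta-glucuronidase of glycosaminoglycan breakdown, gave the largest negative fold change of the members in HOM clones. It had 48.4 and 40.3 CPM in HOM clones, 40.1, 52.6 and 65.9 CPM (lowest, median and highest) in HET clones, and 56.3, 50.5, 126.2 and 86.9 CPM in WT clones. The high WT values came from WT 3 and WT 4, and WT 1 and WT 2 lay within the HET range. In log2 units the fold change was -0.85 in HOM (SE 0.31, adjusted p = 0.26 by edgeR) and -0.58 in HET clones (SE 0.21, adjusted p = 0.17 by edgeR), and without WT 3 it was -0.55 and -0.29. With 1 surrogate variable in the model it was -0.51 and -0.31. In WT 3 GUSB stood 1.26 log2 units above the median clone, and its 10 expressed neighbours had a median of 0.17. GUSB has 11 annotated pseudogenes named after it, so its counts are uncertain.

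NAGLU, which removes N-acetylglucosamine from heparan sulfate, had 19.6 and 18.4 CPM in HOM clones. It had 16.5, 20.9 and 25.4 CPM (lowest, median and highest) in HET clones, and 24.5, 25.4, 22.7 and 27.1 CPM in WT clones. The HOM clones lay below all WT clones and inside the HET range. HEXA, the alpha subunit of hexosaminidase A, had 70.9 and 74.7 CPM in HOM clones, 62.1, 77.8 and 111.6 CPM (lowest, median and highest) in HET clones, and 64.7, 86.9, 57.8 and 63.5 CPM in WT clones, with all groups overlapping. GAA, which breaks down glycogen, differed between the HOM clones, at 24.4 CPM in HOM 1, the lowest of the 13, and 70.8 CPM in HOM 2. In HOM 1 GAA lay 1.19 log2 units below the median clone, and its 10 expressed neighbours lay between -0.92 and -0.17 (median -0.56). GLA, which removes alpha-galactose from globotriaosylceramide, GLB1, the acid beta-galactosidase, and the sialidase NEU1 had no p below 0.05, and ranged over 2.55-fold, 1.75-fold and 2.61-fold between clones.

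The 2 sulfatases both had their highest value in WT 3. ARSA, which removes sulfate from sulfatides, had 5.80 and 7.94 CPM in HOM clones. It had 6.91, 8.73 and 13.5 CPM (lowest, median and highest) in HET clones, and 7.97, 8.77, 14.5 and 13.5 CPM in WT clones. The HOM clones lay below all WT clones, HOM 2 only just, and the log2 fold change was -0.70 (SE 0.32, adjusted p = 0.34 by edgeR), or -0.48 without HOM 1 and -0.12 with 1 surrogate variable. SGSH, which removes sulfate from heparan sulfate, had 17.8 and 28.9 CPM in HOM clones, 18.2, 24.4 and 31.2 CPM (lowest, median and highest) in HET clones, and 15.4, 31.9, 40.3 and 39.8 CPM in WT clones. WT 1 was the lowest of all 13 for SGSH, so the groups overlapped. Its exons overlap SLC26A11 and CARD14 on the opposite strand.

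In the lipid group LIPA and PPT1 had fold changes of opposite sign. LIPA, the acid lipase that frees cholesterol and fatty acids from lipoproteins, had 138.4 and 141.3 CPM in HOM clones, 101.7, 152.7 and 180.5 CPM (lowest, median and highest) in HET clones, and 253.9, 228.3, 187.0 and 179.2 CPM in WT clones. All HOM and HET clones but HET 4 lay below all 4 WT clones, and HET 4 lay between WT 4 and WT 3. Its log2 fold change came to -0.60 in HOM (SE 0.20, adjusted p = 0.25 by edgeR) and -0.50 in HET clones (SE 0.14, adjusted p = 0.10 by edgeR). LIPA overlaps IFIT2 exons on the opposite strand.

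PPT1, which removes palmitate from proteins, had 246.8 and 186.8 CPM in HOM clones, 98.3, 159.5 and 241.7 CPM (lowest, median and highest) in HET clones, and 133.0, 130.3, 139.9 and 110.7 CPM in WT clones. The HOM clones lay above all WT clones, and HET 1 below them all. The fitted value on the log2 scale was 0.75 in HOM (SE 0.29, adjusted p = 0.27 by edgeR) and 0.46 in HET clones (SE 0.22, adjusted p = 0.27 by edgeR), and with 1 surrogate variable in the model it was 0.29 and 0.06. PPT1 overlaps exons of CAP1 on the opposite strand. PSAP, the precursor of the saposins that present lipids to hydrolases, had 439 and 515 CPM in HOM clones, 398, 494 and 564 CPM (lowest, median and highest) in HET clones, and 435, 439, 432 and 382 CPM in WT clones. The PSAP ranges overlapped, as did those of the acid ceramidase ASAH1 in each comparison. NPC2, which passes cholesterol to the limiting membrane, was lower in both HOM clones (48.4 and 52.9 CPM) than in any WT clone (58.5 to 73.0 CPM).

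**Figure D4:**
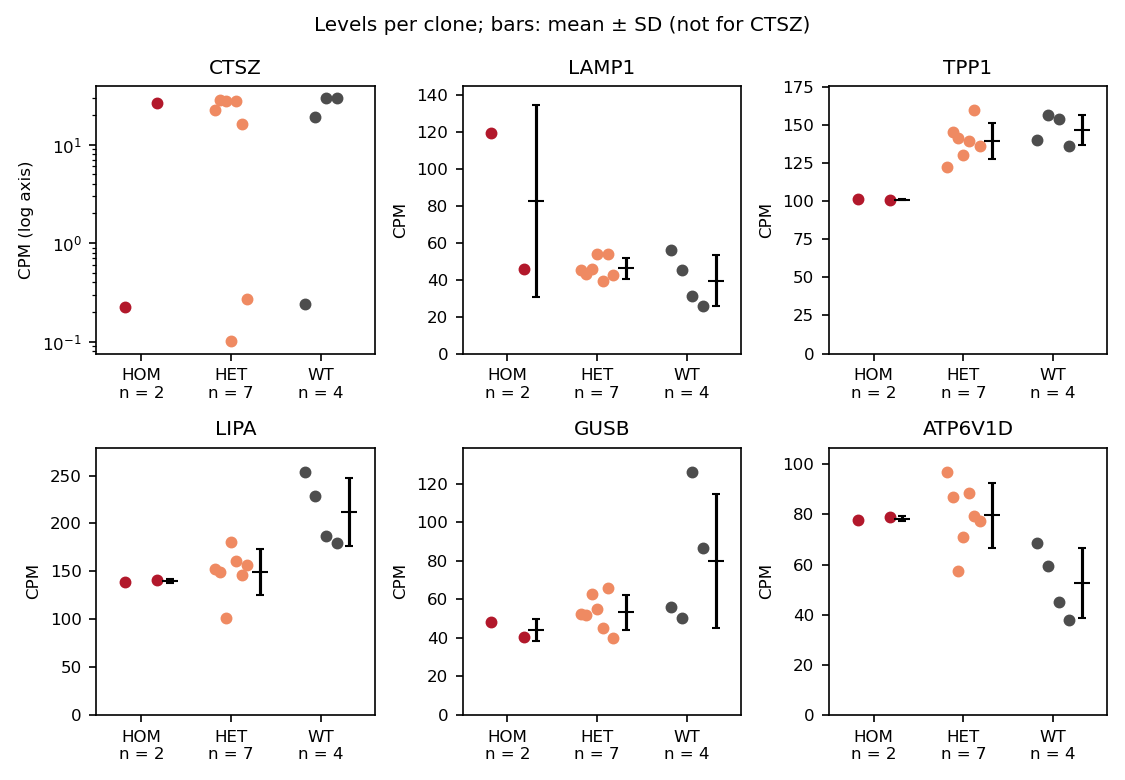
Levels in CPM (vertical axes, logarithmic for CTSZ) of 6 genes in each HOM, HET and WT clone (points), with bars for mean ± SD except for CTSZ. TPP1 is lower in both HOM clones than in every other clone, the LAMP1 mean of HOM rests on HOM 1 at 119.6 CPM, and the GUSB mean of WT on WT 3 at 126.2 CPM.

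Of the membrane proteins, LAMP1, a glycoprotein that lines the inside of the lysosomal membrane, gave the largest fold change of the members, and a single clone decided it. LAMP1 had 119.6 CPM in HOM 1 and 45.9 CPM in HOM 2, 39.3, 45.2 and 54.1 CPM (lowest, median and highest) in HET clones, and 56.1, 45.3, 31.0 and 25.7 CPM in WT clones. HOM 2 lay inside the HET and WT ranges. In log2 units the fold change was 1.07 against WT (SE 0.32, adjusted p = 0.22 by edgeR) and 0.84 against HET (SE 0.29, adjusted p = 1.0 by edgeR), where 1.91% of all genes were higher at an unadjusted p below 0.05. Without HOM 1 it was 0.23 against WT and 0.00 against HET.

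In HOM 1 the genes around LAMP1 were high with it. LAMP1 lay 1.40 log2 units above the median clone, and its 10 nearest expressed genes, from TUBGCP3 to UPF3A, lay between 0.41 and 1.40 (median 1.02). All genes of chromosome 13 in HOM 1 had a median of -0.22. In no other clone did LAMP1 lie more than 0.31 above the median clone. Whether the copy number of this stretch differs in HOM 1 was not tested.

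LAMP2, the partner glycoprotein of LAMP1, had 233.8 and 239.9 CPM in HOM clones, 198.3, 281.0 and 337.7 CPM (lowest, median and highest) in HET clones, and 289.1, 313.8, 182.9 and 246.3 CPM in WT clones. CD63, a tetraspanin of late endosomes and lysosomes, had 142.3 and 165.3 CPM in HOM clones, 138.1, 171.2 and 204.4 CPM (lowest, median and highest) in HET clones, and 183.2, 170.4, 157.6 and 135.4 CPM in WT clones. The groups overlapped for both. MCOLN1, the calcium channel that is an established target of TFEB, had 13.3 and 13.6 CPM in HOM clones, 11.7, 13.0 and 22.9 CPM (lowest, median and highest) in HET clones, and 12.1, 13.3, 15.8 and 13.5 CPM in WT clones, so that only HET 6 stood away from the rest. CLN3, a lysosomal membrane protein mutated in juvenile Batten disease, ranged over 1.98-fold, from HET 5 to HET 6.

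In the V0 sector, ATP6V0D1, which couples the membrane ring to the rotor, was the 1 subunit with a p below 0.05. It had 88.7 and 135.8 CPM in HOM clones, 96.4, 126.6 and 143.8 CPM (lowest, median and highest) in HET clones, and 108.7, 92.1, 85.6 and 70.8 CPM in WT clones. Of the 7 HET clones, 6 lay above all WT clones and HET 5 between WT 1 and WT 2. The log2 fold change in HET clones was 0.46 (SE 0.15, adjusted p = 0.14 by edgeR). ATP6V0B, a proteolipid of the membrane ring, was higher in both HOM clones (115.4 and 97.0 CPM) than in WT clones (67.3 to 94.4 CPM), and HET clones spread from 53.7 to 122.8 CPM. The accessory subunit ATP6AP1 had 198 and 233 CPM in HOM clones, 188 to 291 CPM in HET clones and 223 to 291 CPM in WT clones. ATP6V0A1, which forms the proton path with the ring, and the ring proteolipid ATP6V0C had their lowest value in HET 5, and the small subunit ATP6V0E1 varied by 1.48-fold.

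In the V1 sector, all 6 subunits had fitted values above 0 in HOM and in HET clones, and ATP6V1D, part of the central rotor, had the lowest p. It had 77.6 and 79.0 CPM in HOM clones, 57.4, 79.3 and 97.0 CPM (lowest, median and highest) in HET clones, and 68.5, 59.4, 45 and 37.9 CPM in WT clones. All HOM clones and 6 of the 7 HET clones lay above every WT clone, with HET 3 below WT 1 and WT 2. Its log2 fold change came to 0.57 in HOM (SE 0.22, adjusted p = 0.28 by edgeR) and 0.60 in HET clones (SE 0.17, adjusted p = 0.10 by edgeR). Its exons overlap EIF2S1 on the opposite strand.

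ATP6V1A, the catalytic subunit, had 193.5 and 256.2 CPM in HOM clones, 202.5, 230.3 and 346.7 CPM (lowest, median and highest) in HET clones, and 249.7, 218.7, 155.7 and 131.2 CPM in WT clones. Both other groups overlapped WT through WT 1 and WT 2, and the log2 fold change in HET clones was 0.41 (SE 0.19, adjusted p = 0.26 by edgeR), or 0.26 without WT 4 and 0.19 with 1 surrogate variable. ATP6V1C1, of the stator, had 146.9 and 119.0 CPM in HOM clones, 107.0, 113.3 and 142.6 CPM (lowest, median and highest) in HET clones, and 148.3, 105.7, 79.2 and 65.8 CPM in WT clones. ATP6V1B2, which pairs with ATP6V1A in the ATP-hydrolysing head, ATP6V1E1, of the peripheral stalk, and the regulatory subunit ATP6V1H had no p below 0.05.

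The 6 listed V1 subunits shared 1 ranking of the WT clones, a pattern chosen after the values were seen. For 6 of 6 subunits WT 1 was the highest of the WT clones, WT 2 the next, then WT 3, and WT 4 the lowest, where the numbers only name clones. The WT 1 level exceeded that of WT 4 by 1.24-fold for ATP6V1B2, 1.74-fold for ATP6V1E1, 1.81-fold for ATP6V1D, 1.90-fold for ATP6V1A, 2.13-fold for ATP6V1H and 2.26-fold for ATP6V1C1. The same ranking held for 13 of the 39 members, the others being ATP6V0A1, ATP6V0D1, CD63, CTSA, GLA, LAMP1 and LIPA, and for 10.2% of all genes tested. Of the tested V1 subunits outside the 39, ATP6V1G1 kept this ranking, at 142.8, 126.0, 119.2 and 104.7 CPM in WT 1 to WT 4. ATP6V1F did not, at 104.3, 105.8, 131.7 and 115.9 CPM, nor did ATP6V1B1, ATP6V1C2, ATP6V1E2 and ATP6V1G2, all of lower level. WT 3 and WT 4 were the 2 lowest of all 13 clones for 8 members, against 7.73% of all genes. WT 4 had the lowest level of all 13 clones for 13 of the 39 members (33.3%), against 9.97% of all genes.

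**Figure D5:**
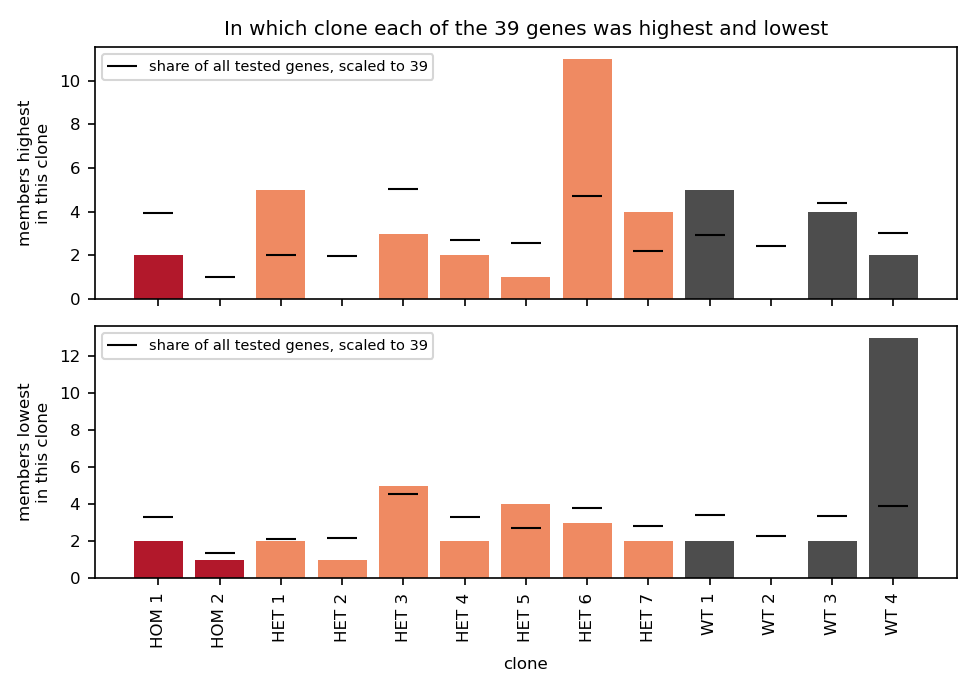
Number of the 39 genes (vertical axes) that were highest (top) or lowest (bottom) in each clone (horizontal axis), with a dash where the share of all tested genes, scaled to 39, would lie. HET 6 was highest for 11 genes and WT 4 lowest for 13, the tallest bar of each panel.

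HET 6 had the highest level of all 13 clones for 11 of the 39 members (28.2%), where it was highest for 12.1% of all genes. They were the proteases CTSA, CTSD, CTSF and TPP1, the glycosidases HEXA and NEU1, the membrane proteins CD63, CLN3 and MCOLN1, and ATP6V0A1 and ATP6AP1 of the pump. NEU1 had 148.3 CPM in HET 6 and at most 82.2 CPM in the other HET clones, CTSD 176.3 and at most 123.3 CPM, and MCOLN1 22.9 and at most 13.6 CPM. Its GLB1, ASAH1 and ATP6V0E1 levels were the lowest of the 13. Among the 26 members with promoter sequence, HET 6 was the highest clone for 7 of the 12 with CACGTG (CD63, CLN3, CTSA, CTSD, CTSF, MCOLN1 and NEU1) and for 3 of the 14 without it. Over all tested genes these shares were 9.30% with CACGTG and 10.9% without. Among the 7 members with the longer TCACGTGA, HET 6 was highest for CLN3, CTSA and MCOLN1, and not for ATP6V0D1, GAA, LAMP1 or SCPEP1. Among those with the core alone it was highest for CD63, CTSD, CTSF and NEU1, and not for ATP6V0B. HET 6 also had the highest FLCN (63.9 CPM) and TFE3 (61.3 CPM) of the 13 clones but the lowest MITF (11.5 CPM), and its TFEB (3.42 CPM) lay within the range of the other HET clones. Mitochondrial ribosomal RNA made 0.402% of its counts, against 0.114 to 0.298% in the other HET clones, 0.524 and 0.181% in HOM clones and 0.330 to 0.411% in WT clones. The part of these in the HET 6 levels was not tested, and HET 6 was singled out after its values were seen.

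Member values lay on the side of a shifted chromosome about as often as those of all genes. In the 12 pairs of a chromosome with members and a clone whose median over that chromosome lay at least 0.2 log2 units from 0, 19 of 25 member values (76.0%) fell on the same side as the chromosome, against 72.2% of all tested genes. In HET 5, where chromosome 16 had a median of -0.52, CLN3, ATP6V0C and ATP6V0D1 were all below their median. PPT1 and ATP6V0B were low in WT 1 and HET 1 with chromosome 1 (-0.30 and -0.25), PSAP and LIPA in HET 3 with chromosome 10 (-0.24), and GLB1 and ATP6V1A were high in HET 7 with chromosome 3 (0.26). Also on the side of their chromosome were NPC2 and ATP6V1D in HET 5, NEU1 in HET 7, and GLA and LAMP2 in WT 3. LAMP1 was not on the side of chromosome 13 in HET 3, HET 4 or HOM 1, nor ATP6AP1 on that of chromosome X in WT 3. On chromosome 17 in HOM 1, GAA, NAGLU and SGSH were low and SCPEP1 and ATP6V0A1 were not.

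Lysosomal genes outside the 39 were not called by edgeR either. Tested were 33 further, mostly soluble lysosomal proteins, 18 further membrane proteins, 11 further V-ATPase subunits, 12 sorting factors and 6 regulators, 80 in all. Of these, 0 passed an adjusted p of 0.05 with edgeR in any comparison. DESeq2 called 1 of the 80 in HOM against WT (DNASE2, lower, adjusted p = 0.0297) and 0 in HET. It called 1.94% and 5.64% of all genes in these comparisons. By limma voom, 2 of the 80 were called in HOM (DNASE2 lower and NAGPA higher, adjusted p = 0.0423 and 0.0364), where 2.94% of all genes were. In HET limma voom called 6 of the 80, 3 higher and 3 lower, where it called 20.8% of all genes. The 6 held DNASE2 and GNPTG (both lower, adjusted p = 0.0341 and 0.0137 by limma voom). At an unadjusted p below 0.05 with edgeR, HOM against WT gave 0 higher and 3 lower soluble proteins and 1 higher sorting factor, where 7.52% of all genes were higher and 6.84% lower. HET against WT gave 1 higher and 3 lower soluble proteins, 1 lower membrane protein and 1 lower sorting factor, against 9.73% and 8.73% of all genes, and HOM against HET gave 2 lower soluble proteins, against 0.891%. Of the mostly soluble proteins 10 of 33 lay above 0 in HOM and 15 of 33 in HET clones, against 49.0% and 50.8% of all genes. DNASE2, the acid nuclease, had 27.1 and 29.4 CPM in HOM, 31.0 to 50.7 CPM in HET and 37.4 to 63.8 CPM in WT clones, with a log2 fold change of -0.87 in HOM (SE 0.23, adjusted p = 0.20 by edgeR) and -0.40 in HET (SE 0.16, adjusted p = 0.21 by edgeR), or -0.58 and -0.16 with 1 surrogate variable. The 2 HOM clones were the lowest of the 13 for DNASE2.

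AGA, which cleaves asparagine-linked glycans from their protein, had a log2 fold change of -0.70 in HOM (SE 0.25, adjusted p = 0.25 by edgeR) and -0.40 in HET clones (SE 0.17, adjusted p = 0.23 by edgeR). The membrane transporter MFSD8 had -0.43 in HET clones (SE 0.14, adjusted p = 0.13 by edgeR). Of the factors that tag enzymes with mannose 6-phosphate, NAGPA had 0.88 in HOM (SE 0.33, adjusted p = 0.27 by edgeR) and GNPTG -0.45 in HET clones (SE 0.20, adjusted p = 0.26 by edgeR), or 0.56 and -0.15 with 1 surrogate variable. NAGPA levels were 12.5 and 11.9 CPM in HOM clones, above the 5.50 to 9.98 CPM of HET clones and the 4.61 to 11.3 CPM of WT clones. TFEB, TFE3 and MITF averaged 2.81, 40.3 and 12.5 CPM in HOM, 3.21, 46.8 and 14.9 CPM in HET and 4.11, 40.3 and 16.4 CPM in WT clones, with edgeR adjusted p of 0.435 or more in each comparison with WT.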

How the data were processed

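The deposited file is a table of raw counts per gene, made by the authors with Trimmomatic 0.36, STAR and featureCounts 1.5.3 on build hg19, per the submitters' processing notes. Not given in the sources used here are the STAR version, the annotation, whether counting used strand, and how multi-mapping reads were treated. Libraries were stranded and poly(A)-selected, per the labels' protocols. Exons of 20 of the 39 genes overlap another gene in GENCODE release 29, which served for symbols, chromosomes, gene order and transcript lengths, and 5 (CTSL, GUSB, ATP6V0C, ATP6V0E1 and ATP6V1E1) have pseudogenes named after them, so these counts are less certain.

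Genes were kept by filterByExpr, scaled by TMM and fitted over all 13 clones with edgeR 4.0.16 (R 4.3.3, robust quasi-likelihood F test, two-sided, Benjamini-Hochberg adjustment over 20320 genes, threshold 0.05). Fold changes are log2 with SE, taken as the absolute log2 fold change over the square root of the F statistic. CPM is computed from counts and TMM-scaled totals. The fit was tested on simulated counts with changes placed in HET clones only, so the comparisons with HOM clones were not tested in this way. No library was treated as a duplicate, the chi-square per gene being 31.9 for the closest pair, WT 3 and WT 4. Replicate numbers only name clones and pair none. Clone names begin with a number that HOM 2, HET 7 and WT 4 share, as do WT 1 and WT 2, and no source used here says what it marks. If it marks a batch, only 1 batch holds more than 1 genotype, with 1 clone of each, so no within-batch test could be made. No date is given either.

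The members and lists were chosen with earlier results of these data known. Per-clone values were given for up to 3 members per role with the lowest p and for others as marked, and fold changes for members with an unadjusted p below 0.05 and for up to 3 genes of lowest p per further list, 1 of which is not reported here. Alternatives were DESeq2 1.42.0, limma 3.58.1 voom, RLE factors, 2 other count filters, fits to the compared groups, non-robust estimation, 1 surrogate variable (sva 3.50.0), removal of chromosome medians or a GC trend, a fit that dropped WT 2, HET 2 and HOM 1 together, and each library left out. A chromosome's median was taken over its protein-coding genes of mean log2 CPM above 3. Counting error is small at these depths except for CTSZ in its 4 low clones, where 3 counts, the limit a count of 0 allows, would be 0.0581 to 0.0669 CPM.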

Additional observations from a re-analysis of the deposited data

Results flagged for a closer look

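In groups of 4 to 10 clones, a highest or lowest clone was marked by Dixon's 95% criterion. This asks whether its gap to the nearest other clone was large for the group's range. Of 78 groups of the 39 genes, 9 were marked, where the nominal rate is about 1 in 20. The share over all genes tested was not computed, and the groups share the same clones, so 9 cannot be read as an excess. Of the 9, 6 were HET 6, the highest HET clone for CTSA (82.3 CPM, the next 60.3), CTSD (176 CPM, the next 123), HEXA (112 CPM, the next 81.4), NEU1 (148 CPM, the next 82.2), MCOLN1 (22.9 CPM, the next 13.6) and ATP6AP1 (291 CPM, the next 227). The V1 subunit ATP6V1B2 was marked for HET 7, at 127 CPM and with the next HET clone at 92.0 CPM. Among WT clones, PSAP was marked for WT 4, the lowest at 382 CPM with the next at 432 CPM, and ATP6V0C for WT 3, the highest at 22.6 CPM with the next at 17.2 CPM. Groups of 2 could not be examined, so LAMP1 in HOM 1 was not, and CTSZ met the criterion in neither the HET nor the WT group.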

How the results depend on the processing

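Of 24 alternatives, 13 of which left out 1 library each, most called 0 of the 39 members. In HET against WT DESeq2 called 2 (LIPA and ATP6V1D, 5.13%) where it called 5.64% of all genes, and limma voom 11 (28.2%) where it called 20.8%. The fits with 1 library left out called 0 to 2, the 2 being ATP6V0D1 and ATP6V1D without WT 1 (edgeR adjusted p = 0.0488 and 0.0242), where 7.14% of all genes were called. In HOM against WT DESeq2 called 1 and limma voom 1, TPP1 in both, where they called 1.94% and 2.94% of all genes. The 26 fold changes followed were those printed above except that of CYBB, with those of LAMP1 and TPP1 in HET against WT added. They gave 624 values under these alternatives. Of these, 603 kept their sign and their side of the threshold, 20 kept their sign and passed it, and 1 reversed. The reversed value was LAMP1 in HOM against HET, at -0.026 in the fit that dropped WT 2, HET 2 and HOM 1. Among these fold changes, leaving out 1 library moved LAMP1 in HOM most, between 0.23 without HOM 1 and 1.59 without HOM 2 against WT and between 0.00 and 1.36 against HET. NAGPA in HOM against WT was lowest without WT 3 (0.735) and highest without WT 1 (1.26), and GUSB in HET against WT ranged from -0.76 without WT 2 to -0.29 without WT 3. The median of the 39 in HOM against WT ran from -0.09 without WT 4 to 0.05 without HOM 1. The causes were not tested. No paired analysis was possible because replicate numbers only name clones. With 1 HOM clone left out, the other is assumed to vary like the other groups, and 2 HOM clones limit every HOM value.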

Other observations

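GALC, the galactosylceramidase and not one of the 39 genes, was chosen after its values were seen as a lysosomal gene that, like CTSZ, was near absent in single clones. It had 8.17 and 9.05 CPM in HOM clones, 0.0241 CPM (1 count) in HET 3 and 2.39 to 19.2 CPM in the other 6 HET clones, and 0.0218 CPM (1 count) in WT 1 and 7.55, 11.9 and 6.12 CPM in the other WT clones. WT 1 was low for both genes, and CTSZ had 27.8 CPM in HET 3.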
